A study of Mus musculus with 12 samples.

Results

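The comparison described here set RNA from pancreatic islets taken 1 day after beta cell ablation against RNA from islets of untreated mice. It used 6 of the 12 RNA-seq libraries in the study, the 3 labelled DT 1 DPA (called 1 DPA here, read as 1 day post-ablation) and the 3 labelled CTRL, and every gene with enough reads to be tested, 17294 of the 48709 in the count table. All mice in both groups were female, of genotype NSG RIP-DTR Htz. They were heterozygous for a transgene in which the rat insulin promoter (RIP) drives the diphtheria toxin receptor (DTR), on the immunodeficient NSG strain. The 1 DPA mice received diphtheria toxin (DT) and the CTRL mice have the treatment "none", so the controls carried the transgene too and no vehicle injection is recorded for them. The other 6 libraries, 3 each at 3 and 5 DPA, entered the fit and served for a second comparison with 1 DPA. The labels give no ages, no hour of collection and no word on whether a library is 1 mouse or a pool, so p-values speak only of how far these samples vary, and that variation may be technical in origin. In bulk islets, fewer cells of a type and less RNA per cell cannot be told apart, and that holds for every fall reported here.

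Beta cells are the insulin-secreting cells of the islet and make most of its messenger RNA. Mouse cells bind diphtheria toxin poorly, so in this model the toxin enters the cells that express the transgenic receptor. Inside a cell it modifies elongation factor 2 at a residue called diphthamide, which stops protein synthesis and leads to death of the cell. When translation is blocked, cells are known to raise short-lived messengers such as immediate early genes, and stress pathways such as the integrated stress response and NF-kB can be engaged. Those families are described below beside the secretory and mitochondrial genes of the beta cell.

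Summed over genes, replicates 1 to 3 had 38700773, 44764274 and 45571879 counts in CTRL, against 38942407, 38102956 and 29867083 at 1 DPA. The insulin genes took 16.0% to 18.7% of counts in CTRL and 10.4% to 14.2% at 1 DPA, and the 50 most abundant genes took 32.8% to 35.9% and 21.9% to 30.1%. The first principal component of the 6 libraries (66.8% of the variance) ran from -83.9 to -36.8 in CTRL and from 57.3 to 76.7 at 1 DPA. CTRL replicate 3 stood apart from the other controls on the second component (-69.1 against 39.98 and 9.13) and in its immune and stromal genes, which touches the falls reported for those cells further on. The NSG strain lacks mature lymphocytes, and the T cell marker Cd3e had no count in any of the 6 libraries. Other genes used as lymphocyte markers did have counts. Cd4, which other leukocytes also express, had 1034 and 800 in CTRL replicates 1 and 2 and 9 to 21 in the other libraries, and Cd79a had 203 to 519 in every library. The beta cell gene Ins2 was among the most abundant in every library.

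Levels are given as CPM, counts scaled to library sizes with TMM, for replicates 1, 2 and 3 in that order. edgeR called 8916 genes different at an adjusted p under 0.05, which is 51.6% of those tested. Of these 5045 (29.2% of genes tested) were higher and 3871 (22.4%) lower at 1 DPA, and the median size of a called change was 0.64 on the log2 scale. Changes of at least 2-fold were rarer, with 2535 genes (14.7%), 1867 higher (10.8%) and 668 lower (3.86%). In 9455 genes (54.7%) the groups did not overlap. The median gene had a log2 fold change of -0.05. When the 50 most abundant genes were kept out of the library sizes it was -0.18, with 4223 genes higher and 5523 lower. The share of calls that were higher went from 56.6% to 43.3%, so small changes are to be read against a baseline that the scaling can move by that much. The plot of gene lists gives the shares called in 47 lists of related genes beside those of all genes.

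**Figure D1:**
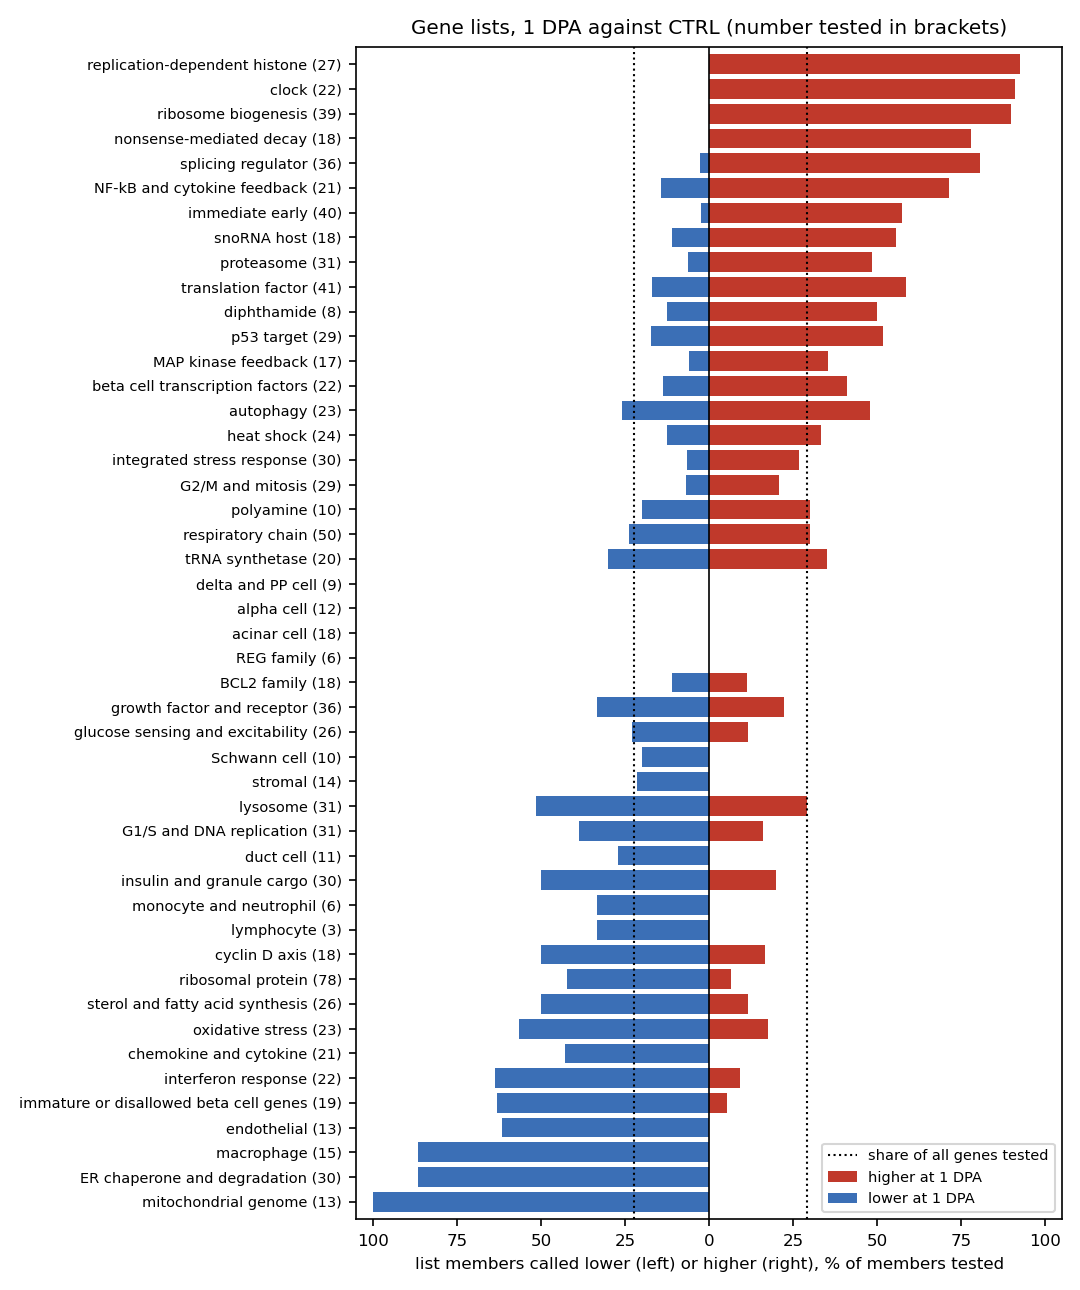
Share of the tested members of each gene list called higher (right, red) or lower (left, blue) at 1 DPA against CTRL, in percent; the number tested is in brackets and the dotted lines give the shares among all genes, 29.2% and 22.4%. Histone, clock, ribosome biogenesis and splicing lists lie far to the right, and the mitochondrial genome, endoplasmic reticulum and macrophage lists far to the left.

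Immediate early genes, whose transcription starts within minutes of a stimulus without new protein synthesis, were among the largest rises. Of 40 tested, 23 rose and 1, Arc, was called lower, with a median log2 fold change of 0.81 against -0.05 over all genes. The orphan nuclear receptor Nr4a1 read 48.7, 29.0 and 15.9 CPM in CTRL and 1084, 1060.4 and 699 at 1 DPA (log2 fold change 4.93 ± 0.43, adjusted p = 1.00e-05). Its relative Nr4a2 read 5.20, 5.40 and 2.62 CPM in CTRL and 226, 220.2 and 143 at 1 DPA (log2 fold change 5.48 ± 0.33, adjusted p = 8.70e-07). For both receptors every 1 DPA library lay far above every control. The AP-1 subunit Fosl2 read 22.2, 32.5 and 10.9 CPM in CTRL and 562, 562 and 352 at 1 DPA (log2 fold change 4.49 ± 0.40, adjusted p = 1.44e-05), and the small Maf factor Maff 9.43, 8.19 and 6.52 CPM in CTRL and 173, 186 and 240.1 at 1 DPA (log2 fold change 4.63 ± 0.25, adjusted p = 3.70e-07). Egr4, a zinc finger factor, was nearly silent in controls, with 0.182, 0.120 and 0.155 CPM in CTRL and 19.3, 24.6 and 21.8 at 1 DPA (log2 fold change 7.14 ± 0.52, adjusted p = 3.03e-06). The best known member behaved differently: Fos read 209, 63.9 and 111 CPM in CTRL and 161, 188 and 159 at 1 DPA, where the groups overlapped (log2 fold change 0.40 ± 0.35, adjusted p = 0.347, not called), and Jun rose only from 214, 131 and 161 to 294, 289 and 261 CPM (log2 fold change 0.74 ± 0.22). Myc (-0.61 ± 0.27) and Zfp36 (-0.50 ± 0.39) were not called. Arc, a neuronal early gene, read 12.6, 3.99 and 2.62 in CTRL and 2.15, 1.77 and 1.78 at 1 DPA (log2 fold change -1.75 ± 0.59), which no longer passed once CTRL replicate 1 or any 1 DPA library was dropped (adjusted p 0.0691 to 0.119).

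Promoters of 3 of the genes that rose most are shown because they carry the cyclic AMP response element core, TGACG, on which CREB and ATF factors act. The sequences are the 250 bases before the RefSeq start site (GRCm38.p6, the build also called mm10), on the strand of the gene, with each TGACG and its reverse complement CGTCA in capitals.
Nr4a1 (chr15:101266596-101266845, plus strand, 4 matches): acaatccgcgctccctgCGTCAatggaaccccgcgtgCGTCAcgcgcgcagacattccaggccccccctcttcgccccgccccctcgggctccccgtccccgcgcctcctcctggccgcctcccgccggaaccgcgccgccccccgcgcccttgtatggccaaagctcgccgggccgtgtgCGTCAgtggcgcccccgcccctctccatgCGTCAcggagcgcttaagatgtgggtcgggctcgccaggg
Nr4a2 (chr2:57124004-57124253, minus strand, 4 matches): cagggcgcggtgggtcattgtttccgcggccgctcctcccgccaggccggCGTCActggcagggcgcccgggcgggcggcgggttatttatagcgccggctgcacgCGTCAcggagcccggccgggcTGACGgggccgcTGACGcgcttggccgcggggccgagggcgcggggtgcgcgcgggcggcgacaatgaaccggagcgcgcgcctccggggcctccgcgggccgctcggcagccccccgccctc
Egr4 (chr6:85513590-85513839, minus strand, 2 matches): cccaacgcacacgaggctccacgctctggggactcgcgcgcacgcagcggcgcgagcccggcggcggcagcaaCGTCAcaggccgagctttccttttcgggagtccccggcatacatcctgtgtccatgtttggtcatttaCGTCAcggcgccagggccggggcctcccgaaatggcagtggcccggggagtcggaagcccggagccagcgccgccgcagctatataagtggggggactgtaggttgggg
The core, on either strand, lay in the 250 bases before at least 1 listed start of 14 of the 16 immediate early genes that rose and have an entry in the table (87.5%) and of 18 of all 28 members with an entry (64.3%). Among all tested genes with an entry it lay in 3533 of 12606 (28.0%). The full palindrome TGACGTCA, which contains the core, lay in 1 of those 16 (6.25%) and in 2.86% of tested genes. A match is a stretch of letters and not evidence that a factor binds.

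The molecular clock, the transcription feedback loop that gives cells a daily rhythm, was higher almost throughout. Of 22 clock and clock-output genes 20 rose, with a median log2 fold change of 2.45, while Clock itself stood at 115, 127 and 127 CPM in CTRL and 117, 126 and 125 at 1 DPA (log2 fold change 0.00 ± 0.09) and Npas2 was not called. The repressor Nr1d1 (REV-ERB alpha) read 89.5, 51.0 and 100.2 CPM in CTRL and 1881, 1595 and 4389.6 at 1 DPA (log2 fold change 5.03 ± 0.50, adjusted p = 2.86e-05). The PAR bZIP output factors Dbp (55.8, 31.4 and 71.2 CPM in CTRL and 369.5, 307 and 858 at 1 DPA; log2 fold change 3.28 ± 0.46) and Hlf (6.16, 7.08 and 10.6 CPM in CTRL and 124, 125 and 291 at 1 DPA; 4.50 ± 0.42) moved in the same direction. The lowest treated library was above the highest control for all of these. Rises included genes that peak at opposite times of the daily cycle. The repressors Per1 (38.7, 99.7 and 60.1 in CTRL, 682, 689 and 988 at 1 DPA), Per2 (26.3, 30.7 and 38.7, 129.9, 135 and 206) and Cry1 (11.3, 15.2 and 13.6, 113, 110.0 and 224) rose. So did the activator Arntl (BMAL1), from 21.8, 23.2 and 20.96 to 80.8, 75.1 and 97.4 CPM (log2 fold change 1.94 ± 0.11, adjusted p = 1.49e-07), and the repressor Nfil3, from 19.5, 23.3 and 20.98 to 207, 198 and 253 CPM (log2 fold change 3.37 ± 0.17, adjusted p = 1.66e-07). Among the 20 genes that rose, 1 DPA replicate 3 was the highest library for 18.

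Ciart, a clock-controlled repressor, had the largest fold among them, at 1.20, 0.576 and 1.49 CPM in CTRL and 63.0, 54.6 and 375 at 1 DPA (log2 fold change 7.23 ± 1.01, adjusted p = 0.000317). Its 1 DPA replicate 3 lay far above the other treated libraries, which were still well above every control. Its promoter is shown because it holds 3 E-boxes, CACGTG, the palindrome bound by CLOCK and BMAL1, marked in capitals; the window runs from 250 to 31 bases before the RefSeq start, on the minus strand of GRCm38.p6.
Ciart (chr3:95882259-95882478): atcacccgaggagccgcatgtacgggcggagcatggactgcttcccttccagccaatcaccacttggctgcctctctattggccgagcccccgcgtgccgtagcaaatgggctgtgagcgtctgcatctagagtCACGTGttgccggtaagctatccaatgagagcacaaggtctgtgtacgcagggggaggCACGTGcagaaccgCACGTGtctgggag
Of the 16 clock genes that rose and have an entry, 5 (31.2%) had an E-box in the 250 bases before at least 1 listed start, against 9.22% of tested genes.

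**Figure D2:**
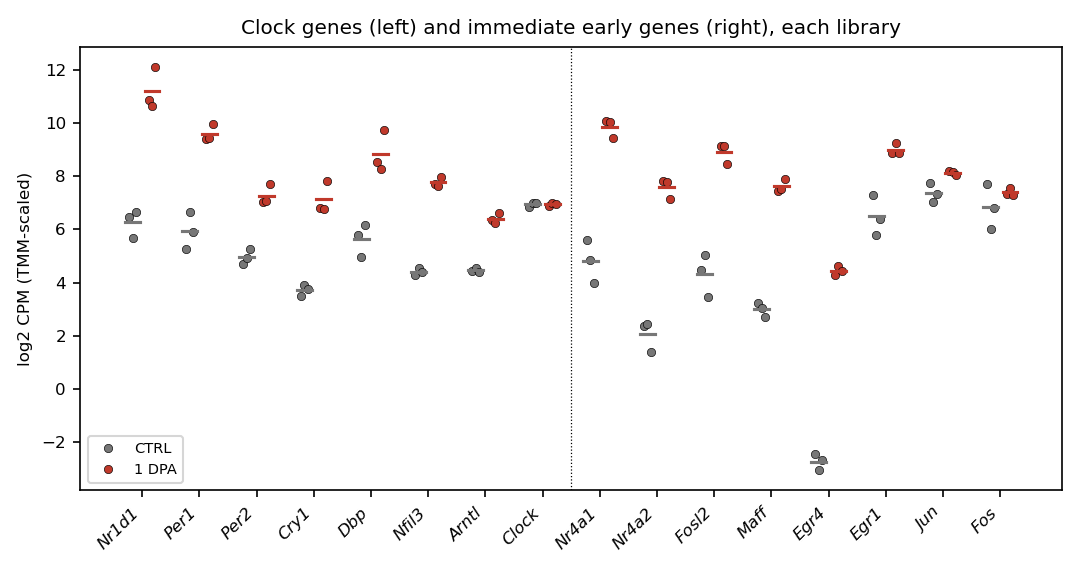
Expression of 8 clock genes and 8 immediate early genes in each CTRL (grey) and 1 DPA (red) library, as log2 CPM; dots are replicates 1 to 3 from left to right and bars are group means. All clock genes shown but Clock, and all early genes shown but Fos, lie higher at 1 DPA with no overlap.

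Single feedback inhibitors of MAP kinase signalling rose strongly, while the share of their list, 6 of 17 higher (35.3%, median 0.22), was near the 29.2% of all genes. The largest rises were those of the dual-specificity phosphatases Dusp4 (5.28, 6.17 and 4.90 CPM in CTRL and 90.6, 76.0 and 143 at 1 DPA; log2 fold change 4.24 ± 0.36, adjusted p = 8.87e-06), Dusp8 (22.3, 40.1 and 30.7 CPM in CTRL and 538, 556 and 601 at 1 DPA; log2 fold change 4.19 ± 0.27, adjusted p = 9.22e-07) and Dusp16 (log2 fold change 2.58 ± 0.20). The early-response phosphatase Dusp1 (0.24 ± 0.23) and the ERK phosphatase Dusp6 (-0.01 ± 0.20) were not called. Dusp2 was called lower, but dropping CTRL replicate 1 or any single 1 DPA library took it past the threshold (adjusted p 0.0658 to 0.116).

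NF-kB subunits and inhibitors rose, while among chemokines, many of which NF-kB is known to drive, the calls were lower. Of 21 genes in the list of NF-kB and cytokine feedback 15 rose and 3 fell, with a median of 1.08. The falls, Traf1, Socs1 and Tnfaip2, were no longer called without CTRL replicate 1, without 1 DPA replicate 1 or with the macrophage covariate. The subunit gene Nfkb2 read 41.5, 27.8 and 15.9 CPM in CTRL and 375, 376 and 594 at 1 DPA (log2 fold change 3.98 ± 0.42, adjusted p = 3.95e-05), and Relb read 41.6, 20.9 and 8.23 CPM in CTRL and 145, 131 and 197 at 1 DPA (log2 fold change 2.75 ± 0.56, adjusted p = 0.00286). The inhibitors Nfkbia (46.4, 45.8 and 23.5 in CTRL, 196, 163 and 251 at 1 DPA) and Tnfaip3 (24.3, 11.2 and 7.16, 116, 139.6 and 124) rose as well, and the number of rises was 14 to 16 under every other setting tried. In the chemokine and cytokine list 9 of 21 were called lower and the median was -1.41. Ccl5, a chemokine of T cells and macrophages, read 82.9, 14.9 and 0.200 CPM in CTRL and 0.220, 0.238 and 0.0634 at 1 DPA, so the fall rests on CTRL replicates 1 and 2, and CTRL replicate 3 lay within the 1 DPA range. Without CTRL replicate 1, 3 of the 21 were called lower, without CTRL replicate 3 it was 13, and with the macrophage score as a covariate 1. The neutrophil attractant Cxcl1 (2.81, 0.336 and 0.488 CPM in CTRL and 1.79, 1.21 and 2.79 at 1 DPA; log2 fold change 0.69 ± 0.72) and the monocyte attractant Ccl2 (-1.16 ± 0.59) were not called. Interferon response genes fell in 14 of 22 and rose in 2, with 2 lower without CTRL replicate 1, 19 without CTRL replicate 3 and none with the macrophage covariate (18 of 22 had an unadjusted p under 0.05 in edgeR without the covariate, and DESeq2 and limma-voom called 19 and 3 in either direction). The macrophage marker list averaged 4.64, 4.26 and 2.58 log2 CPM in CTRL and 2.28, 2.37 and 2.63 at 1 DPA, so it moved with the chemokine and interferon genes, and its part in these falls was not tested beyond that covariate.

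Genes for making and processing RNA rose as groups. Ribosome biogenesis, the nucleolar assembly of ribosomes, had 35 of 39 genes higher (median 0.79), and under the other settings 32 to 35. Rrp12, which exports pre-ribosomes, read 14.7, 17.1 and 16.9 CPM in CTRL and 64.0, 59.6 and 73.7 at 1 DPA (log2 fold change 2.02 ± 0.10, adjusted p = 9.57e-08). Nop58, a core protein of box C/D small nucleolar particles, read 29.99, 34.7 and 35.3 CPM in CTRL and 115, 115 and 135 at 1 DPA (log2 fold change 1.87 ± 0.10, adjusted p = 1.24e-07). Gnl3, nucleostemin, rose from 16.8, 18.6 and 19.96 to 61.3, 62.1 and 93.4 CPM. Polr1a, the largest subunit of RNA polymerase I, rose with a log2 fold change of only 0.19 ± 0.07. Host genes of small nucleolar RNAs rose in 10 of 18 and fell in 2, Snhg18 (-1.01 ± 0.13) and Snhg4 (-0.36 ± 0.14). The rises were led by Snhg15 (2.47, 2.04 and 2.73 CPM in CTRL and 49.4, 45.9 and 62.2 at 1 DPA; log2 fold change 4.44 ± 0.29, adjusted p = 9.59e-07) and Snhg12 (6.94, 5.86 and 6.14 CPM in CTRL and 44.7, 41.4 and 45.2 at 1 DPA; log2 fold change 2.79 ± 0.20, adjusted p = 8.70e-07). Gas5, another host, rose only from 46.7, 42.5 and 49.97 to 54.2, 58.0 and 53.8 CPM (log2 fold change 0.25 ± 0.08).

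Splicing regulators rose in 29 of 36, with a median of 0.81, and Srsf9 alone fell (-0.29 ± 0.08). Tra2a, a splicing activator, read 23.4, 34.1 and 28.2 CPM in CTRL and 134, 129 and 147 at 1 DPA (log2 fold change 2.26 ± 0.16, adjusted p = 1.21e-06), and its relative Tra2b 56.4, 64.1 and 62.2 CPM in CTRL and 232, 224 and 257 at 1 DPA (log2 fold change 1.96 ± 0.11, adjusted p = 1.52e-07). The SR protein gene Srsf3 rose from 119, 129 and 143 to 419, 418 and 509 CPM and the kinase of SR proteins Clk4 from 39.3, 42.3 and 57.3 to 160.2, 160.1 and 201 CPM. Many of these genes are known to carry poison exons, whose transcripts are cleared by nonsense-mediated decay, a process that needs translation. Factors of that decay pathway rose in 14 of 18 (median 0.38). Upf3b read 38.2, 37.4 and 57.3 CPM in CTRL and 118, 111 and 117 at 1 DPA (log2 fold change 1.38 ± 0.15, adjusted p = 1.57e-05), and Upf2 44.1, 52.5 and 51.0 CPM in CTRL and 99.1, 95.2 and 107 at 1 DPA (log2 fold change 1.03 ± 0.08, adjusted p = 8.15e-07). Gene counts do not separate isoforms, so poison exons were not measured.

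Of 41 translation factors 24 rose and 7 fell (median 0.28), and all but Eef1d of the rises were initiation factors or their subunits. The cap-binding protein gene Eif4e rose from 61.2, 66.5 and 64.0 to 128, 127 and 146 CPM (log2 fold change 1.06 ± 0.07) and Eif5 from 178, 172 and 190.4 to 350.0, 357 and 409 CPM (1.05 ± 0.09). Eef2, which encodes the toxin's target, read 1693, 1756 and 1709 CPM in CTRL and 1846, 1729 and 1781 at 1 DPA (log2 fold change 0.05 ± 0.06, adjusted p = 0.490) and its difference was within the spread of the replicates. Of 7 genes of the diphthamide pathway 4 rose and 1, Dnajc24, fell. The largest rise was Dph5, a methyltransferase in its synthesis (3.64, 3.36 and 3.22 CPM in CTRL and 9.17, 6.89 and 6.98 at 1 DPA; log2 fold change 1.17 ± 0.15, adjusted p = 4.16e-05). Of 78 ribosomal protein genes 33 fell and 5 rose (median -0.17). Rplp0, a stalk protein gene, fell from 423, 404 and 374 to 287, 287 and 282 CPM (log2 fold change -0.49 ± 0.06). The furthest fall was that of Rps29, a log2 fold change of -0.57 ± 0.13, and the number of falls ran from 11 with the macrophage covariate to 55 with library sizes that leave out the 50 most abundant genes. Of 20 transfer RNA synthetases 7 were higher and 6 lower (median -0.03), not far above the 29.2% and 22.4% of all genes.

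Rpl27 and Rpl18 went against their family. Rpl27 read 9.02, 10.8 and 9.78 CPM in CTRL and 26.3, 27.8 and 38.5 at 1 DPA (log2 fold change 1.64 ± 0.17, adjusted p = 1.14e-05). Rpl18 read 182, 183 and 168 CPM in CTRL and 391, 384 and 839 at 1 DPA (log2 fold change 1.60 ± 0.29, adjusted p = 0.00119). Rpl18 lies on chromosome 7 (45715457 to 45720836, plus strand, GENCODE M21 on mm10), 5253 bases past the end of the clock gene Dbp (45705088 to 45710203, plus strand), and Sphk2 (45709467 to 45718002, minus strand) overlaps the end of Dbp and the start of Rpl18. Sphk2, a sphingosine kinase, read 67.1, 64.2 and 69.4 CPM in CTRL and 195, 217 and 576 at 1 DPA (log2 fold change 2.30 ± 0.40, adjusted p = 0.00112). In all 3 genes 1 DPA replicate 3 was the highest library. Whether the counting used strand is not given in the sources used here, so reads of overlapping genes cannot be assigned with certainty.

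**Figure D3:**
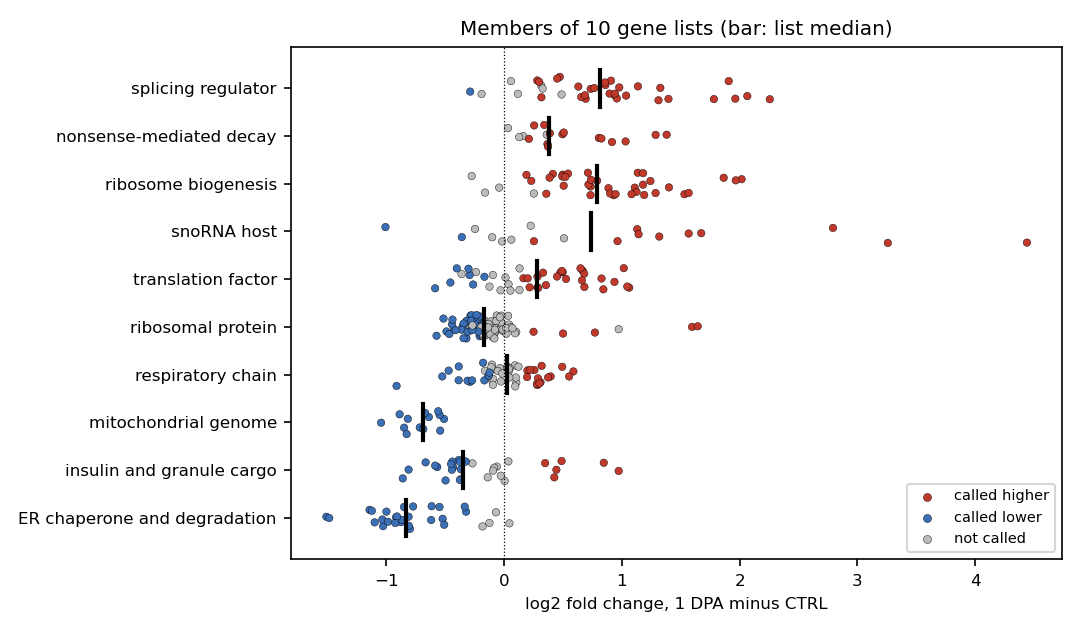
Log2 fold change of each tested member of 10 gene lists, 1 DPA minus CTRL; red points were called higher, blue lower and grey not called, and the black bar is the list median. The lists for RNA processing and ribosome biogenesis lie to the right of 0 (medians 0.38 to 0.81), the mitochondrial genome (-0.69) and endoplasmic reticulum lists (-0.83) to the left.

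The endoplasmic reticulum folding machinery, on which insulin production depends, fell almost as a unit. Of 30 chaperone, translocation and degradation genes 26 fell (median -0.83), and 26 to 28 fell under every other setting. The chaperone BiP, Hspa5, read 1439, 1463 and 1243 CPM in CTRL and 713, 837 and 646 at 1 DPA (log2 fold change -0.92 ± 0.10, adjusted p = 1.73e-05). Hyou1 read 988, 961 and 849.8 CPM in CTRL and 438, 493 and 376 at 1 DPA (log2 fold change -1.10 ± 0.10, adjusted p = 4.27e-06), and the disulfide isomerase gene Pdia6 485, 502 and 425 CPM in CTRL and 225, 239 and 177 at 1 DPA (log2 fold change -1.14 ± 0.11, adjusted p = 4.27e-06). In these 3 genes no 1 DPA library reached the lowest control. Sdf2l1, which keeps BiP substrates soluble, fell furthest, from 131, 132 and 100.1 to 45.7, 48.0 and 33.7 CPM (log2 fold change -1.51 ± 0.14). The transcription factor Xbp1 fell from 285, 301 and 299 to 206, 211 and 160.2 CPM. Herpud1, a degradation gene of the same response, read 133, 147 and 139.7 CPM in CTRL and 139, 150.5 and 143 at 1 DPA (log2 fold change 0.05 ± 0.07), not called.

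Among secretory granule genes more fell than rose. Of 30 insulin and granule genes 15 fell and 6 rose (median -0.34), none of them by 2-fold in either direction. Ins1 read 46445, 45243 and 52424 CPM in CTRL and 33483, 29019 and 19691 at 1 DPA (log2 fold change -0.81 ± 0.18) and the amyloid hormone gene Iapp 8745, 8352 and 9334 CPM in CTRL and 6493, 6578 and 4772 at 1 DPA (-0.57 ± 0.13). Ins2 read 123654, 126594 and 137068 CPM in CTRL and 119174, 102456 and 78865 at 1 DPA, the controls all above the treated libraries, but did not pass the test (-0.37 ± 0.16, adjusted p = 0.0801). The prohormone convertase gene Pcsk1 fell (-0.50 ± 0.17) while Pcsk2 was not called (-0.06 ± 0.08). Snap25, a protein of the exocytosis complex, rose from 110.2, 112 and 142 to 218, 208 and 229 CPM (log2 fold change 0.85 ± 0.10, adjusted p = 3.02e-05), and so did the granule peptide Vgf, from 36.7, 37.9 and 32.1 to 83.8, 71.1 and 54.5 CPM (log2 fold change 0.97 ± 0.26).

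Beta cell transcription factors moved both ways, more of them higher than lower. Of 22, 9 rose and 3 fell (median 0.13, or 0.00 with library sizes that leave out the 50 most abundant genes). Insm1, a zinc finger factor of endocrine differentiation, read 464, 448 and 483 CPM in CTRL and 977, 869 and 945 at 1 DPA (log2 fold change 1.00 ± 0.08, adjusted p = 9.03e-07). St18 read 103, 113 and 135 CPM in CTRL and 247, 271 and 241 at 1 DPA (log2 fold change 1.11 ± 0.10, adjusted p = 2.98e-06), and Neurod1 rose from 149, 163 and 199 to 271, 295 and 239 CPM. Pdx1, the factor that drives beta cell identity, read 227, 198 and 253 CPM in CTRL and 202, 171 and 161 at 1 DPA, with 1 DPA replicate 1 above CTRL replicate 2 (log2 fold change -0.34 ± 0.11). Dropping CTRL replicate 3, or one of replicates 2 and 3 at 1 DPA, took Pdx1 past the threshold (adjusted p 0.0505 to 0.0812). Mafa read 602, 549.5 and 751 CPM in CTRL and 724, 739 and 536 at 1 DPA, groups overlapping (0.07 ± 0.16). In the glucose sensing list the transporter Slc2a2 fell from 951, 1028 and 1137 to 577, 481 and 465 CPM (log2 fold change -1.03 ± 0.12, adjusted p = 1.98e-05). Of that list's 26 genes 6 fell (23.1%, near the 22.4% of all genes) and 3 rose (11.5%). Genes normally kept low in mature beta cells were lower in 12 of 19 and higher in 1. Dropping CTRL replicate 1 left 5 of the 12 falls in number, dropping 1 DPA replicate 1 left 4, and the macrophage covariate left 1, and in 7 of the 12 CTRL replicate 3 was no higher than the highest 1 DPA library. The 1 rise was Aldh1a3, a marker of dedifferentiated beta cells, at 1.51, 1.39 and 1.97 CPM in CTRL and 6.55, 7.07 and 2.47 at 1 DPA (log2 fold change 1.72 ± 0.32, adjusted p = 0.000830).

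Transcripts of the mitochondrial genome fell, all 13 of them and with no overlap between groups (median -0.69), and 12 or 13 fell under every other setting. mt-Nd1, a complex I subunit, read 1507, 1445 and 1623 CPM in CTRL and 864, 902 and 775 at 1 DPA (log2 fold change -0.85 ± 0.09, adjusted p = 8.58e-06), and mt-Co1, of cytochrome oxidase, 7508, 7405 and 7853 CPM in CTRL and 5461, 5639 and 4897 at 1 DPA (log2 fold change -0.51 ± 0.09, adjusted p = 0.000577). Of 50 nuclear genes of the same respiratory chain 15 were higher and 12 lower (median 0.02), near the 29.2% and 22.4% of all genes. Uqcrc2 rose (0.59 ± 0.06) and Ndufa4 fell (-0.91 ± 0.08). Lower counts here became 21 with library sizes that leave out the 50 most abundant genes and 5 with the macrophage covariate.

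Degradation and metabolic pathways moved in part. Of 31 proteasome genes 15 rose (48.4%) and 2 fell (6.45%), against 29.2% and 22.4% of all genes. With library sizes that leave out the 50 most abundant genes 10 rose and 6 fell, and the median went from 0.13 to 0.01. Among 31 lysosomal genes 16 fell and 9 rose, the protease gene Ctsb falling from 463, 394 and 264 to 196, 193 and 189 CPM (log2 fold change -0.96 ± 0.18). The lysosomal transcription factor Tfe3 rose from 52.4, 54.5 and 59.1 to 127, 122 and 144 CPM (log2 fold change 1.24 ± 0.07, adjusted p = 1.84e-07). Autophagy genes were higher in 11 of 23 (47.8%) and lower in 6 (26.1%), with a median of 0.10. Leaving the 50 most abundant genes out of library sizes gave 8 higher and 7 lower (median -0.03). Sterol and fatty acid synthesis genes were lower in 13 of 26 and higher in 3, and Pmvk, phosphomevalonate kinase, was the largest rise (14.2, 15.1 and 15.8 CPM in CTRL and 67.1, 63.7 and 63.8 at 1 DPA; log2 fold change 2.11 ± 0.10, adjusted p = 4.75e-08). Antioxidant genes were lower in 13 of 23 and higher in 4. In the polyamine list the rate-limiting enzyme Odc1 read 47.0, 50.03 and 43.9 CPM in CTRL and 207, 188 and 238 at 1 DPA (log2 fold change 2.17 ± 0.17, adjusted p = 2.43e-06).

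Genes of the integrated stress response, which slows translation under stress, were divided. Of 30 genes 8 rose (26.7%) and 2 were lower, near the 29.2% of all genes that were higher. The transcription factor Atf4 read 142, 189 and 157 CPM in CTRL and 371, 344 and 396 at 1 DPA (log2 fold change 1.19 ± 0.10, adjusted p = 2.41e-06), and its partner Ddit3 (CHOP) 13.6, 13.3 and 14.3 CPM in CTRL and 50.3, 47.2 and 53.3 at 1 DPA (log2 fold change 1.88 ± 0.13, adjusted p = 5.97e-07). The phosphatase subunit Ppp1r15a (GADD34) rose from 51.2, 33.4 and 36.9 to 127, 127 and 123 CPM. Some known targets of ATF4 were not called. Trib3 had a log2 fold change of -0.03 ± 0.26, Asns -0.05 ± 0.17 and Chac1 0.29 ± 0.28, with overlapping groups for each. Of 24 cytosolic chaperone genes 8 were higher (33.3%, near the share of all genes) and 3 lower, with a median of -0.04.

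Targets of p53 were higher in 15 of 29 and lower in 5 (median 0.23). Aen, a nuclease, read 34.1, 35.6 and 31.7 CPM in CTRL and 173, 162 and 167 at 1 DPA (log2 fold change 2.31 ± 0.09, adjusted p = 3.88e-08), and the kinase Plk3 27.7, 15.9 and 23.8 CPM in CTRL and 107, 101.4 and 93.6 at 1 DPA (log2 fold change 2.17 ± 0.17, adjusted p = 2.71e-06). The cell cycle inhibitor Cdkn1a rose from 41.8, 42.2 and 28.3 to 104, 93.5 and 87.1 CPM (log2 fold change 1.34 ± 0.25). Of 18 BCL2 family genes, which set the threshold for apoptosis, the death-promoting Bax (51.1, 49.1 and 48.9 in CTRL, 98.3, 93.9 and 125 at 1 DPA) and Bbc3 (log2 fold change 1.44 ± 0.14) rose, and 2 were lower. Each direction took 11.1% of the list, against 29.2% higher and 22.4% lower among all genes. The survival factor Mcl1 was not called (0.29 ± 0.14).

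Replication-dependent histone genes, whose transcripts mostly lack poly(A) tails and are normally made in S phase, rose in 25 of 27 tested, while 3 more in the list had too few reads. Of those tested, 16 were under 1 CPM in at least 1 control and may have passed the filter on low counts only through the treated groups. The 11 with at least 1 CPM in every control all rose, with a median log2 fold change of 1.47. Hist1h4h read 4.57, 5.47 and 3.35 CPM in CTRL and 87.6, 90.6 and 94.0 at 1 DPA (log2 fold change 4.35 ± 0.30, adjusted p = 1.84e-06), and Hist1h2be 2.86, 5.16 and 2.73 CPM in CTRL and 17.3, 14.9 and 17.3 at 1 DPA (log2 fold change 2.20 ± 0.26, adjusted p = 2.85e-05). Summed over all 30 genes, the authors' TPM values were 448 to 486 in CTRL and 1810 to 2062 at 1 DPA. Hist1h2ad had 0 counts in the 3 controls together and 888 at 1 DPA. These genes are near copies of each other, so counting may have divided reads between them. The libraries were made from poly(A) RNA, so histone transcripts without a tail were poorly captured. More transcripts and a larger share of them with a tail cannot be told apart here.

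Other genes of S phase moved both ways. Of 31 genes for the G1/S transition and DNA replication 12 fell and 5 rose. The helicase subunit Mcm3 fell from 13.8, 11.3 and 7.92 to 6.30, 4.96 and 4.76 CPM (log2 fold change -1.04 ± 0.23), while Mcm10 rose from 1.09, 1.49 and 1.38 to 5.09, 5.33 and 8.18 CPM (2.23 ± 0.31). The proliferation marker Mki67 read 12.3, 8.16 and 8.69 CPM in CTRL and 6.75, 5.38 and 2.82 at 1 DPA (log2 fold change -0.96 ± 0.35, adjusted p = 0.0415), and lost its call when one of CTRL replicates 1 and 3, or one of replicates 2 and 3 at 1 DPA, was dropped (adjusted p 0.0561 to 0.113). Cyclin D1, Ccnd1, fell from 120.0, 116 and 123 to 68.0, 72.8 and 65.7 CPM (log2 fold change -0.80 ± 0.09, adjusted p = 2.74e-05). In the mitosis list 6 of 29 rose (20.7%) and 2 were lower (6.90%), against 29.2% and 22.4% of all genes. The kinesin Kif20a was among the rises (5.22, 3.07 and 3.86 CPM in CTRL and 12.1, 11.1 and 14.9 at 1 DPA).

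Growth factor genes moved both ways, 8 of 36 higher (22.2%) and 12 lower (33.3%), against 29.2% and 22.4% of all genes. Insulin-like growth factor 2, Igf2, read 15.2, 12.8 and 10.1 CPM in CTRL and 599, 765 and 1231 at 1 DPA (log2 fold change 6.09 ± 0.40, adjusted p = 1.56e-06). It shares its locus with the antisense transcript Igf2os, so reads of the pair may be mixed. The receptor and an adaptor of that pathway rose too, Igf1r from 89.5, 100.01 and 99.7 to 303, 323 and 232 CPM (log2 fold change 1.57 ± 0.13, adjusted p = 2.25e-06) and Irs2 from 35.6, 68.4 and 49.8 to 335, 394 and 344 CPM (log2 fold change 2.80 ± 0.20, adjusted p = 1.68e-06). The insulin receptor Insr fell (-0.34 ± 0.06). The EGF receptor Egfr rose from 22.2, 22.97 and 22.0 to 69.3, 94.1 and 62.2 CPM (log2 fold change 1.75 ± 0.13), while its ligand Hbegf fell from 17.4, 53.2 and 70.9 to 12.1, 9.08 and 9.32 CPM (log2 fold change -2.21 ± 0.41, adjusted p = 0.00142). Hbegf is the mouse counterpart of the receptor used by the toxin, and CTRL replicate 1 stood nearer to the treated libraries than the other controls did.

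Among the 12 largest rises of genes at 10 CPM or more in CTRL without overlap between groups, 3 belonged to none of the families above. The phosphodiesterase Pde10a, which breaks down cyclic nucleotides, read 28.5, 35.7 and 31.4 CPM in CTRL and 465, 450.3 and 468.97 at 1 DPA (log2 fold change 3.86 ± 0.12, adjusted p = 1.52e-08), with hardly any spread within a group. Ppp1r10, a nuclear regulator of protein phosphatase 1, read 73.9, 91.4 and 75.4 CPM in CTRL and 763, 782 and 1083 at 1 DPA (log2 fold change 3.45 ± 0.20, adjusted p = 3.18e-07). Klf10, a TGF-beta-induced repressor, read 17.7, 14.2 and 17.3 CPM in CTRL and 128, 113 and 244 at 1 DPA (log2 fold change 3.30 ± 0.31, adjusted p = 1.48e-05). The other 9 were Igf2, Nr1d1, Nr4a1, Fosl2, Dusp8, Nfkb2, Per1, Cry1 and Nfil3.

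The genes called higher included 36 under 1 CPM in every control and at 5 CPM or more in every 1 DPA library. They were picked by these same values and may have passed the filter on low counts only through the treated groups. Their fold changes and adjusted p are thus a description and not a separate test. The highest of the 36 at 1 DPA after Igf2os was Trim17, a ubiquitin ligase, at 0.338, 0.552 and 0.399 CPM in CTRL and 52.7, 48.3 and 78.4 at 1 DPA (log2 fold change 7.11 ± 0.45, adjusted p = 1.15e-06). Lax1, an adaptor of lymphocyte signalling, read 0.546, 0.312 and 0.444 CPM in CTRL and 35.9, 29.7 and 28.3 at 1 DPA (log2 fold change 6.17 ± 0.33, adjusted p = 2.19e-07), and Mtfr2, a mitochondrial fission regulator, 0.364, 0.648 and 0.554 CPM in CTRL and 15.1, 17.9 and 24.1 at 1 DPA (log2 fold change 5.17 ± 0.29, adjusted p = 1.49e-07). Of the 36, 20 (55.6%) overlapped or lay within 10 kb downstream of another tested gene on the same strand, against 4014 of 17214 tested genes with an annotation (23.3%). The 20 include genes within histone clusters, such as Hist1h3h (845 bases from Hist1h2ai) and Hist1h3b (669 from Hist1h2ab). They also include other genes, such as Kcnj14 (441 bases from Grwd1). The part of the histone clusters in this share was not tested.

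Markers of other islet hormone cells did not move past the test. edgeR called none of 12 alpha cell genes (0 at an unadjusted p under 0.05, and 0 with DESeq2 and 0 with limma-voom) and none of 9 delta and PP cell genes (2, 0 and 0). Under other settings up to 2 alpha cell genes, with the acinar covariate, and up to 3 delta and PP cell genes, without 1 DPA replicate 3, were called lower. Glucagon, Gcg, read 19871, 24773 and 25654 CPM in CTRL and 14609.7, 23101 and 22567 at 1 DPA (log2 fold change -0.22 ± 0.24), and somatostatin, Sst, 5872, 7617 and 7032 CPM in CTRL and 5054, 5865 and 6728 at 1 DPA (-0.22 ± 0.14). None of 18 acinar genes was called (0, 0 and 0), and their summed TPM spanned 21096 to 121420 in CTRL and 13691 to 100245 at 1 DPA, so a difference in exocrine carry-over of less than that spread was not detectable. None of the 6 REG genes was called either (0, 0 and 0).

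Every edgeR call in the macrophage and endothelial lists was lower, and for 5 of the 13 macrophage genes called CTRL replicate 3 was no higher than the highest 1 DPA library. In that list 13 of 15 were called lower (median -1.54), with 10 without CTRL replicate 1, 15 without CTRL replicate 3 and 4 with limma-voom. C1qa, a complement subunit of tissue macrophages, read 104.6, 79.5 and 45.3 CPM in CTRL and 34.2, 30.4 and 34.4 at 1 DPA (log2 fold change -1.21 ± 0.29, adjusted p = 0.00618), every control above every treated library. The lysozyme gene Lyz2 read 221, 95.1 and 15.6 CPM in CTRL and 14.6, 12.96 and 17.8 at 1 DPA, with CTRL replicate 3 among the treated libraries (log2 fold change -2.87 ± 0.79), and its call ended without CTRL replicate 1 (adjusted p = 0.0522). In the endothelial list 8 of 13 fell, the VEGF receptor Kdr from 215, 186 and 194 to 130.5, 134 and 102 CPM (log2 fold change -0.70 ± 0.10, adjusted p = 9.79e-05). The endothelial tight junction gene Cldn5 read 18.3, 16.6 and 2.28 CPM in CTRL and 1.84, 1.56 and 1.01 at 1 DPA (log2 fold change -3.07 ± 0.88), and missed the threshold when 1 DPA replicate 3 was dropped (adjusted p = 0.0545). Stromal genes were called lower in 3 of 14 (21.4%, near the 22.4% of all genes), and this count was 14 without CTRL replicate 3 and 0 without CTRL replicate 1 (5 of 14 had an unadjusted p under 0.05 with all libraries, and DESeq2 and limma-voom called 8 and 3). The stromal list averaged 6.81, 6.19 and 4.73 log2 CPM in CTRL and 5.14, 5.22 and 5.33 at 1 DPA. Of the 12 largest falls among genes at 10 CPM or more in CTRL whose groups did not overlap, C1qc, Ptprc, Lcp1 and Irf8 are genes of leukocytes, Mx1 is an interferon gene, and Cldn5, Mmrn1, Lyve1 and Ccl21a are vessel genes. The lymphatic vessel gene Mmrn1 read 21.4, 25.02 and 2.71 CPM in CTRL and 0.633, 1.45 and 0.729 at 1 DPA, and Lyve1 26.8, 38.3 and 7.25 CPM in CTRL and 3.83, 4.51 and 4.22 at 1 DPA. The chemokine Ccl21a read 20.5, 12.03 and 7.70 CPM in CTRL and 0.771, 2.14 and 1.90 at 1 DPA. In each of the 3 genes CTRL replicate 3 was the lowest control and still above the treated libraries. The remaining falls were Fscn1, Plxnc1 and Hbegf. Leaving out CTRL replicate 1, CTRL replicate 2 or any 1 DPA library ended the calls of Mmrn1 (adjusted p 0.0536 to 0.0837) and Lyve1 (0.0603 to 0.0863). Fscn1 lost its call without CTRL replicate 1 or any 1 DPA library (0.101 to 0.196). Irf8 (0.0514 to 0.0623), Plxnc1 (0.0811 to 0.113) and Ptprc (0.0589 to 0.0655) lost theirs without CTRL replicate 1 or 1 DPA replicate 1 or 2. Ccl21a lost its call without CTRL replicate 1 or 1 DPA replicate 1 (0.0511 and 0.0667), and Mx1 without 1 DPA replicate 2 (0.0535). With limma-voom all of the 12 falls but Hbegf lost their calls (adjusted p 0.0797 for Ccl21a to 0.218 for Fscn1). With the macrophage covariate those same falls lost their calls or, for Fscn1, Irf8, Plxnc1 and Ptprc, changed sign.

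**Figure D4:**
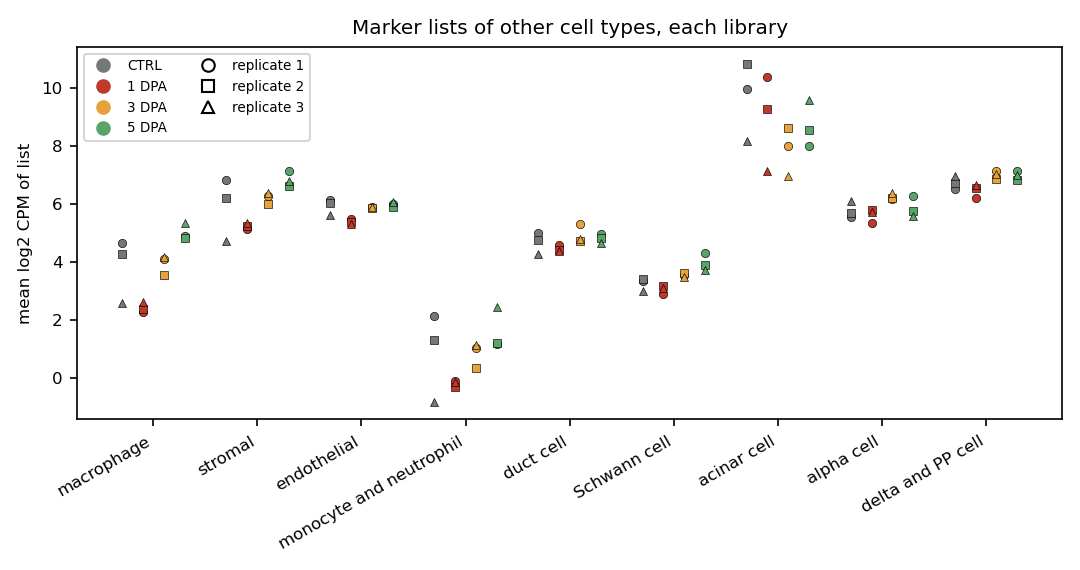
Mean log2 CPM of marker lists for other cell types in each of the 12 libraries; colours are the groups and symbols the replicate numbers. CTRL replicate 3 (grey triangle) lies at 2.58 for macrophage genes, within the 1 DPA range of 2.28 to 2.63, and at 4.73 for stromal genes, below the 1 DPA libraries.

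Against the mean of 3 and 5 DPA, islets at 1 DPA differed in 9856 genes (57.0%), 5158 higher (29.8%) and 4698 lower (27.2%). Both comparisons use the same 1 DPA libraries, so they are not independent. With the macrophage covariate the count was 3993, and macrophage scores were 3.54 to 5.34 at 3 and 5 DPA against 2.28 to 2.63 at 1 DPA. Of the 30 endoplasmic reticulum genes 25 were below the later days. Hspa5 averaged 1427 ± 70.5 CPM at 3 DPA and 1402 ± 100.9 at 5 DPA (log2 difference of 1 DPA from the later days -0.95 ± 0.09). Insm1 averaged 582 ± 49.7 CPM at 3 DPA and 439.6 ± 14.9 at 5 DPA (0.88 ± 0.06), and Igf1r 93.7 ± 14.1 CPM at 3 DPA and 89.7 ± 4.79 at 5 DPA (1.64 ± 0.11). Fosl2 averaged 73.9 ± 17.7 CPM at 3 DPA and 58.4 ± 7.504 at 5 DPA (2.91 ± 0.29). Some early genes were higher still on the later days. Egr4 averaged 792 ± 412 CPM at 3 DPA and 212 ± 33.5 at 5 DPA (-4.23 ± 0.33) and Jun 1151 ± 345 CPM at 3 DPA and 545 ± 63.3 at 5 DPA (-1.49 ± 0.20). Nr4a1 averaged 1465 ± 389 CPM at 3 DPA and 363 ± 49.4 at 5 DPA and did not differ past the test (0.38 ± 0.31, adjusted p = 0.315). Of the p53 targets, Aen was lower later (83.6 ± 9.03 CPM at 3 DPA and 52.5 ± 4.44 at 5 DPA; 1.34 ± 0.07) and Cdkn1a higher (286 ± 99.6 CPM at 3 DPA and 131 ± 17.9 at 5 DPA; -1.03 ± 0.23). Cxcl1 averaged 55.6 ± 21.9 CPM at 3 DPA and 20.4 ± 4.05 at 5 DPA (-4.14 ± 0.62). For the clock, Arntl averaged 29.6 ± 1.90 CPM at 3 DPA and 23.2 ± 2.54 at 5 DPA (1.69 ± 0.09), and Nr1d1 1902 ± 772 CPM at 3 DPA and 587 ± 61.9 at 5 DPA (1.31 ± 0.35).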

How the data were processed

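Poly(A) RNA of islets was prepared with column kits and stranded libraries, per the labels' protocols, and the submitters' processing notes name the build mm10. For the aligner, the counter, its annotation and its strand setting, the methods are not given in the sources used. The deposited table holds the authors' raw counts per gene, and beside them the authors' TPM values, which adjust for gene length and were used only to sum levels over gene lists. Of the other columns of per-sample values, 24 were not used.

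Counts of all 12 libraries were fitted with edgeR 4.0.16 (R 4.3.3; TMM scaling, default filter on low counts, robust quasi-likelihood test, Benjamini-Hochberg adjustment over 17294 genes, adjusted p under 0.05), so the 4 groups share 1 estimate of the spread. Errors after ± are standard errors for log2 values and SDs (n = 3) for levels. Where abundant genes such as the insulins fall, the scaling can shift all other genes. Replicate pairs differed beyond counting noise (reduced chi-square of at least 47.2), so all were kept as separate samples. Alternatives were DESeq2 1.42.0, limma-voom (limma 3.58.1), other scalings and filters, marker score covariates, the replicate block and leaving out each library.

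Genes named are the 12 largest rises and falls at 10 CPM or more in CTRL without overlap between groups, the 8 most abundant genes under 1 CPM in every control and at 5 CPM or more in every 1 DPA library, for each list and direction at most 3 of the called genes with the smallest p, the 6 largest differences from the later days in each direction, and 12 preset genes. Predicted and clone-named genes were left out of the rule. Others, such as Fos, Clock, Herpud1 and Rpl27, were chosen after their values were seen. The members and the 47 gene lists were chosen with earlier results of these data known. Of 1121 list entries 5 matched no gene. Positions came from GENCODE M21, which matched 48349 of 48709 genes, and promoters from the RefSeq table for GRCm38.p6.

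On simulated counts for 17091 genes, the test of 1 DPA against CTRL recovered 60% of genes raised by 1 log2 unit, 57.1% of those lowered by 1, 85.7% of those raised by 2 and 82% of those lowered by 2, and 8 of 149 calls were false. The simulation changed only 49 or 50 genes per size and direction, with rises and falls in balance. In the data 51.6% of genes were called, so these rates need not hold there.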

Additional observations from a re-analysis of the deposited data

Results flagged for a closer look

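Each gene here differed from CTRL at 1 DPA and also between 1 DPA and the mean of 3 and 5 DPA, by edgeR's test of that difference. Values are log2 differences, 1 DPA minus the mean of the later days. Cyp26b1, an enzyme that degrades retinoic acid, was higher at 1 DPA by 4.82 and averaged 0.848 ± 0.286 CPM at 3 DPA and 1.27 ± 0.363 at 5 DPA. Its call against CTRL ended with limma-voom (log2 fold change 3.37, adjusted p = 0.150). The small GTPase Diras2 was higher by 4.16, Hhipl2 by 3.43 and Lingo4 by 3.05. The potassium channel Kcnj14 and the myosin Myo15 were each higher by 3.00.

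The differences of the other sign were -7.54 for the chemokine receptor Ccr7, -6.91 for Ccl5, -4.86 for Cd4, -4.23 for Egr4, -3.37 for Lyz2 and -3.26 for the leukocyte gene Lsp1. Of these 6, Egr4 is the early gene that was higher than CTRL at 1 DPA, and the other 5 were called lower than CTRL. For those 5 CTRL replicate 3 was no higher than the highest 1 DPA library. Their calls against CTRL ended without CTRL replicate 1 or any 1 DPA library for Ccr7 (adjusted p 0.0888 to 0.109), Ccl5 (0.0853 to 0.109) and Lsp1 (0.0739 to 0.140), without any library but CTRL replicate 3 for Cd4 (0.0659 to 0.113), and without CTRL replicate 1 for Lyz2 (0.0522). With limma-voom the calls of all 5 ended (adjusted p 0.129 for Lyz2 to 0.581 for Ccr7). Macrophage genes averaged 3.54 to 5.34 log2 CPM at 3 and 5 DPA against 2.28 to 2.63 at 1 DPA, and their part in the other 5 differences was not tested.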

How the results depend on the processing

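The count of genes differing from CTRL was 7337 to 9746 under the settings that kept all 6 libraries compared, apart from 6778 when the fit held a macrophage score (5945 of them shared, 6 in the opposite direction), against 8916. Leaving out 1 library gave 7852 to 9619 genes (4330 to 5258 higher, 3047 to 4361 lower, 2050 to 3281 past 2-fold) and, against the later days, 8516 to 10438. The count against the later days fell to 3993 when it held that score. The score turned 17 of 236 values tried, to 0.30 for Fscn1, 0.16 for Irf8, 0.11 for Plxnc1, 0.0535 for Ptprc, 1.32 for Plac8, 0.21 for Csf3r, 2.19 for Cd4, 0.71 for Dusp2, 2.19 for Traf1, 0.11 for Ifi44, 0.0025 for Bcl2a1b, 0.0203 for Slc7a11, 0.11 for Hspb1, 2.91 for Ccr7, 2.28 for Ccl5, 0.25 for Lyz2 and 0.94 for Lsp1 (log2, 1 DPA minus CTRL); the cause was not tested. These 17 genes had been called lower, so those calls ended too. Without a change of sign, calls ended for 38 more of the 236 with the macrophage score. They ended for 25 with the acinar covariate, 32 with limma-voom, 2 without the 50 most abundant genes in library sizes and 0 with DESeq2. Leaving out 1 library ended 6 (without CTRL replicate 3) to 32 (without CTRL replicate 1). With the replicate block 8430 genes were called against CTRL (4908 higher, 3522 lower) and 8 calls ended. Same-numbered libraries did not deviate together (correlations -0.038, 0.012 and -0.001, against -0.084 to 0.081 between different numbers). Whether the numbers mark pairs or batches is not settled by these few correlations. With 3 libraries a group, changes of 1 log2 unit or less may go uncalled, and some larger ones too. In the simulation 60% of genes raised and 57.1% of genes lowered by 1 log2 unit were recovered. For changes of 2 log2 units these were 85.7% and 82%.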

Other observations

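Families of gene symbols outside the lists were counted after the values had been seen, as a description. Zinc finger genes with Zfp symbols were higher in 166 of 379 and lower in 24, with a median log2 fold change of 0.22. RNA-binding motif genes (Rbm) were higher in 26 of 36 and lower in 1, and DEAD-box helicase genes (Ddx) higher in 25 of 36 and lower in 3. Proteins of the mitochondrial ribosome, which translates the mitochondrial genome, were higher in 18 of 29 small subunit (Mrps) and 18 of 48 large subunit (Mrpl) genes, and lower in 3 of each. Solute carriers (Slc) went the other way, 44 of 301 higher and 34.9% lower, and so did genes with Cd symbols, mostly surface antigens of leukocytes, with 5 of 80 higher (6.25%) and 34 lower (42.5%), against 29.2% and 22.4% of all genes. The macrophage list, at 4.64, 4.26 and 2.58 log2 CPM in CTRL and 2.28 to 2.63 at 1 DPA, moved with them, and its part was not tested.

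Among transcript classes, 122 of 467 long intergenic RNAs were higher (26.1%) and 33 lower (7.07%). Of 498 antisense transcripts 107 were higher (21.5%) and 28 lower (5.62%). Protein-coding genes were higher in 4680 of 15755 (29.7%) and lower in 3751 (23.8%). For long intergenic and antisense transcripts the share higher was below the 29.2% of all genes, and the share lower was below 22.4%. Whether reads from neighbouring genes add to the antisense class was not tested.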
